A study of Oryza sativa with 72 samples.

Results

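The features described here were those whose RNA was higher in droughted than in irrigated rice leaves at every sampling from drought day 6 to 2 h after watering resumed. For each feature, T was the mean log2(CPM + 1) of the treated libraries minus that of the control libraries of the same leaf and stage, where CPM is a library's counts scaled to a common total. The score was the smallest of 6 values of T: drought days 6 and 9 and rehydration 2 h, in the latest and in the second latest leaf. Features with a mean of 5 CPM or more in at least 1 group were eligible, and those with a score of 0.4 or more were kept. This gave 96 raised features of 15485 eligible ones (0.62%), in a count table of 55986 lines. The features were chosen by T at drought days 6 and 9 and at 2 h, and those values are given below as a description, with no test. T at drought day 0 and at rehydration days 3 and 6 was not used in the choice. Those groups did count toward the limit of 5 CPM, so a feature could enter through a group where it was high.

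The plants were IR64, an indica rice cultivar, each grown in a pot of its own in a growth chamber. At 14 days after sowing, the treated plants had their pots raised so that the water drained away, and stayed in severe drought for 9 days before being watered for 6 days. Control plants were kept irrigated throughout. Polyadenylated RNA of the fully expanded latest leaf and of the second latest leaf was sequenced at drought days 0, 6 and 9, at 2 h of rehydration and at rehydration days 3 and 6, with 3 libraries in each of 24 groups. Whether the 3 libraries of a group stem from different plants is not stated in the labels. The p-values therefore reflect library-to-library spread, part of which may be technical.

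A drying rice leaf loses turgor, accumulates the hormone abscisic acid, closes its stomata and induces genes for protective proteins, osmolyte synthesis and signalling. When water returns, turgor recovers quickly, whereas transcripts return to their former level at different rates. IR64 is widely grown on irrigated land and is regarded as sensitive to drought. The latest leaf is the younger of the leaf positions sampled here, and the second latest leaf is the older.

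The table holds 0 gene identifiers, and no source used here ties a line to a gene. Each feature is therefore called by its line number, its function is not stated, and markers of leaf cell types were not checked. RNA came from whole leaf blades, so fewer cells of a type and less RNA per cell cannot be told apart. Reads of near-identical gene copies or of overlapping genes may be split between features. The 71 usable libraries held 6370914 to 24192248 counts (median 13764577), and 3 counts equal 0.471 CPM in the smallest and 0.124 CPM in the largest. In the latest leaf, treated replicate 2 of day 9 of drought had only 1755 counts and was dropped, so that group has 2 libraries.

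The raised features were modest in size. The mean of the 6 chosen values of T had a median of 0.89 over the 96 features, a 1.85-fold difference on the scale of CPM + 1, and ran from 0.51 to 2.21 (1.43-fold to 4.64-fold). A mean of 1 or more was held by 31 features, and 3 features (24415, 46591 and 9943) had all 6 values at 1 or more. The score had a median of 0.52 and a highest value of 1.41. Just inside the limit were feature 626 (score 0.402) and feature 41049 (0.401), and just outside it were feature 34093 (0.3998) and feature 55248 (0.3992).

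The latest leaf at drought day 9 held the largest of the 6 values in 39 of the 96 features. The other 57 were spread over the second latest leaf at day 9 (16) and at 2 h (16), the latest leaf at day 6 (10) and at 2 h (6), and the second latest leaf at day 6 (9). Smallest values were found most often in the latest leaf at day 6 (23 features) and in the second latest leaf at 2 h (20). Median T in the latest leaf was 0.81 at day 6, 1.07 at day 9 and 0.80 at 2 h, beside 0.14, 0.27 and 0.02 over all eligible features. For the second latest leaf the medians were 0.82, 0.83 and 0.77, beside 0.13, 0.08 and -0.06. The percentage of eligible features with T of 0.4 or more was 18.3%, 33.9% and 15.6% in the latest leaf and 14.5%, 11.9% and 16.5% in the second. All 96 features pass these limits by choice. With TMM library sizes (trimmed mean of M values), 96 of the 96 still had all 6 values above 0, the lowest at 0.23, and 61 had all 6 at 0.4 or more.

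**Figure D1:**
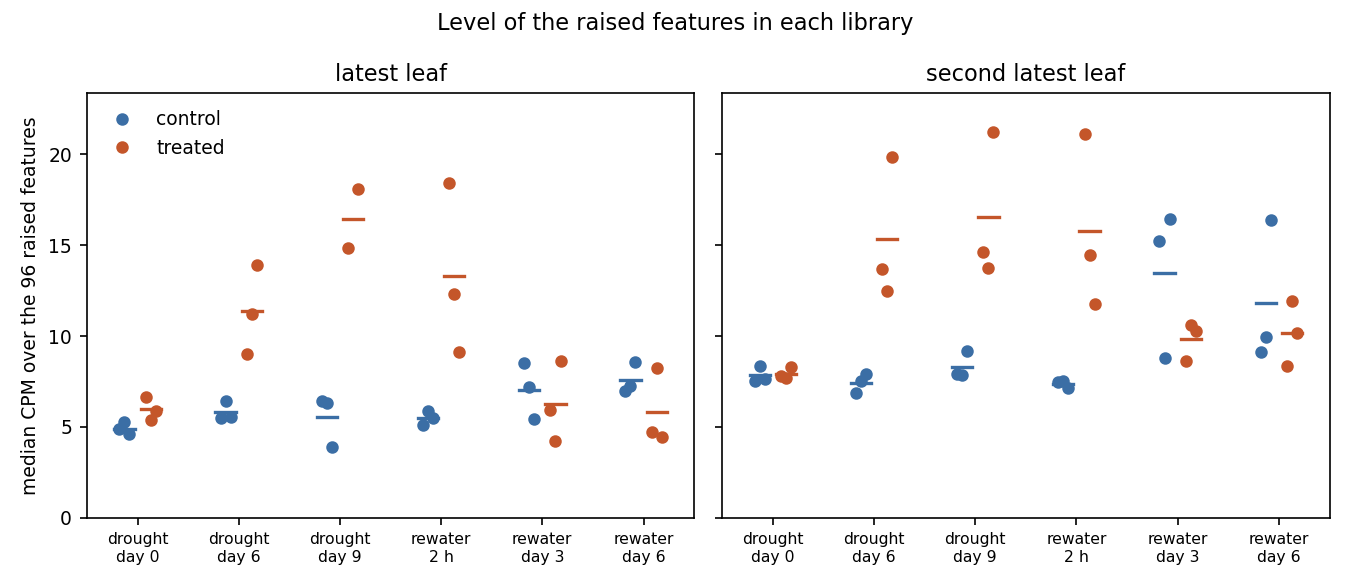
Median CPM over the 96 raised features in each of the 71 usable libraries, by stage (x axis), for the latest leaf (left) and the second latest leaf (right). Points are libraries, bars are group means, blue is irrigated control and orange is drought-treated; treated libraries lie above controls at drought days 6 and 9 and at 2 h, which the choice favours, and the groups overlap at rehydration days 3 and 6.

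Levels per library followed the same course. The median CPM over the 96 features in treated latest leaves was 9.04, 11.2 and 13.9 at drought day 6, against 5.48, 6.45 and 5.55 in controls. At day 9 the usable treated libraries stood at 14.8 and 18.1, and the controls at 6.42, 6.33 and 3.92. Treated second latest leaves had 14.6, 13.8 and 21.2 at day 9, against 7.92, 7.87 and 9.18. No treated library fell within the control range at these stages, a gap that the choice of features favours. The 96 features took 0.910% ± 0.117 of all counts in treated second latest leaves at day 9 and 0.435% ± 0.0249 in controls (SD, n = 3 each). In the latest leaf the share was 0.588% ± 0.0679 (SD, n = 2) against 0.232% ± 0.0583 (SD, n = 3).

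Treated libraries differed most among themselves 2 h after watering resumed. Replicate 1 had the highest median level in both leaves, 18.4 CPM in the latest and 21.1 in the second, followed by replicate 2 with 12.3 and 14.5 and replicate 3 with 9.10 and 11.8. Replicate 1 was the highest of the 3 treated libraries for 85 of the 96 features in the latest leaf, beside 59.5% of all eligible features, and for 67 in the second latest leaf, beside 39.5%. Without it, median T at 2 h was 0.57 in the latest leaf, with 94 features still above 0 and 66 still at 0.4 or more. The second latest leaf without it had a median T of 0.61, with 96 features above 0 and 79 at 0.4 or more. Leaving replicate 1 of the treated latest leaf out of the whole choice gave 67 features, of which 66 were among the 96. The labels do not state whether the leaves with replicate number 1 came from the same plant.

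A few features carried much of the summed counts. Feature 35435 had a mean of 939 CPM over the usable libraries and took 24.0% of all counts of the raised features, and feature 46591 took 6.39%. The median feature had 9.78 CPM, 48 of the 96 had under 10 CPM and 10 had 100 CPM or more, while the median of all eligible features was 20.5 CPM. These are levels in CPM and are not corrected for transcript length. Without feature 35435, the other 95 features took 0.504% ± 0.0705 of counts in treated and 0.284% ± 0.00302 in control second latest leaves at day 9 (SD, n = 3 each). Over the 71 libraries, the first principal component of log2(CPM + 1) carried 51.4% of the variance of the 96 features. Choosing features that are raised in the same groups favours a large share, and it was not computed over all eligible features.

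**Figure D2:**
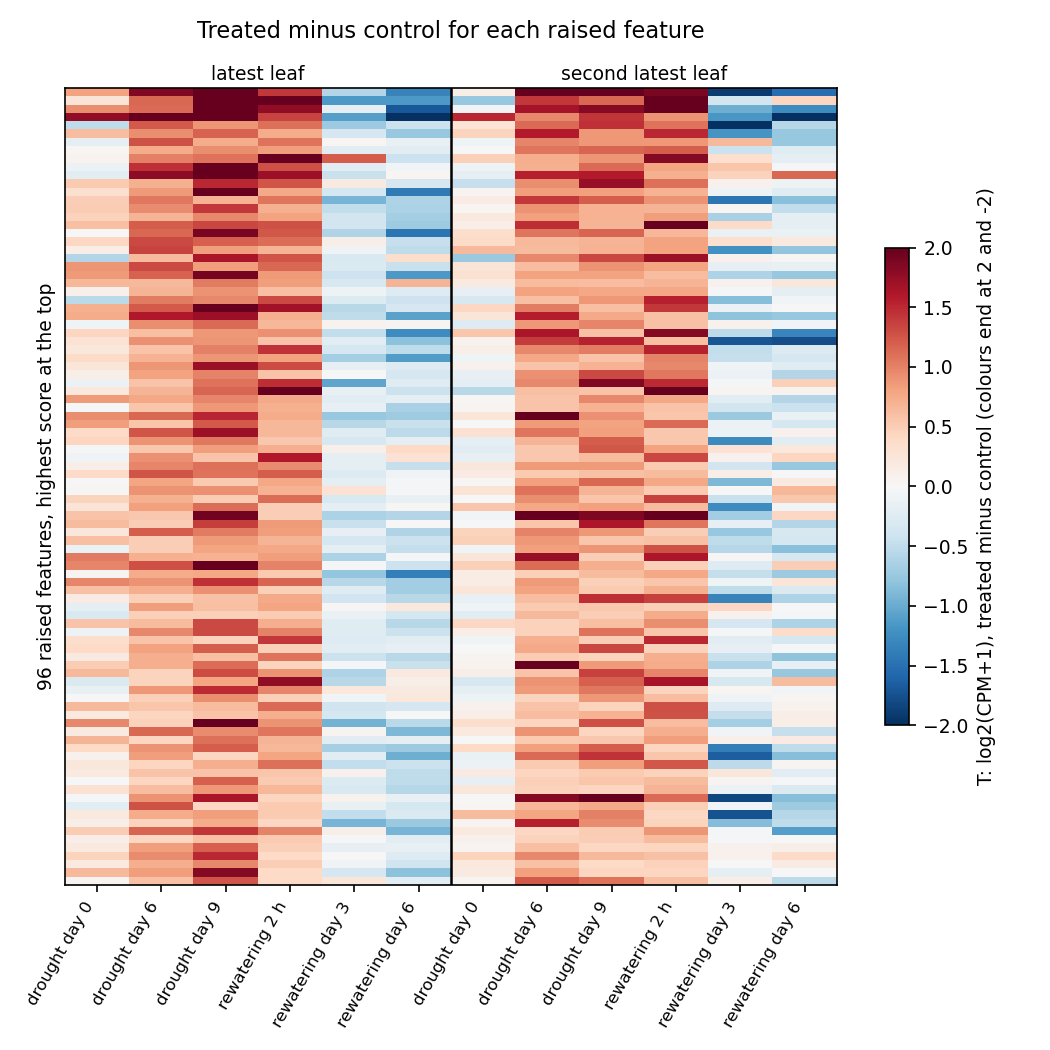
T, the treated minus control difference in mean log2(CPM + 1), for each of the 96 raised features (one line each, highest score at the top) at 6 stages in both leaves. Red is higher in treated plants and blue is lower, with colours ending at 2 and -2; the 3 middle columns of each leaf are red by choice, and blue predominates at rehydration days 3 and 6.

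Feature 24415 had the highest score. In the second latest leaf at drought day 9 it stood at 19.4, 20.1 and 21.6 CPM in treated and at 5.13, 2.04 and 3.06 CPM in control libraries. At 2 h the treated values were 8.97, 5.80 and 5.73 CPM and the control values 0.596, 1.65 and 1.16. All treated libraries lay above all controls at both stages, beside 17.2% and 20.9% of eligible features, a gap that the choice favours. By rehydration day 3 the order had turned, with 3.24, 2.56 and 4.04 CPM in treated and 26.5, 2.47 and 40.9 CPM in controls. Control replicates 1 and 3 were high there, whereas control replicate 2 lay below the treated range, so the groups overlapped. The log2 fold change fitted by edgeR was -2.70 (SE 0.72), with an adjusted p of 0.143 in edgeR's quasi-likelihood test, and did not pass the threshold. At rehydration day 6 in the latest leaf, 0.102, 0.410 and 0.122 CPM in treated libraries lay below 1.91, 1.88 and 2.40 CPM in controls without overlap. Its edgeR log2 fold change there was -2.95 (SE 1.01, adjusted p 0.256), and the treated values are at or near the level of 3 counts.

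In feature 46591, T was 2.13 in the latest and 2.01 in the second latest leaf at 2 h, where its treated libraries spread widely, and 2.09 in the latest leaf at drought day 9. Treated latest leaves had 1186, 377 and 71.7 CPM at 2 h and controls 49.3, 102 and 74.7. Treated second latest leaves had 1920, 578 and 117 CPM, and controls 260, 82.0 and 91.6. In both leaves replicate 3 of the treated plants lay inside the control range at 2 h. At drought day 9, by contrast, its groups did not overlap: 856 and 828 CPM in treated latest leaves against 279, 379 and 71.4 CPM in controls. The choice favours this gap, and 38.3% of eligible features had it there. By rehydration day 3 the latest leaf had 60.8, 47.5 and 61.0 CPM in treated and 173, 190 and 60.7 CPM in control libraries. The groups overlapped at 1 control library, and edgeR gave a log2 fold change of -1.26 (SE 0.61, adjusted p 0.931).

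Feature 9943 resembled feature 24415. At 2 h in the second latest leaf it was at 49.5, 56.7 and 43.0 CPM in treated and at 9.02, 19.0 and 6.95 CPM in control libraries. In controls of that leaf at rehydration day 3 it was at 212, 17.7 and 387 CPM, while treated libraries had 35.9, 111 and 47.6. The same control replicates, 1 and 3, were the high ones as for feature 24415. Its edgeR log2 fold change at that stage was -1.44 (SE 0.74, adjusted p 0.576), with overlapping groups. Feature 9945, 2 lines away in the table, had 37.0, 1.31 and 63.7 CPM in those controls and 3.87, 3.35 and 6.28 CPM in the treated libraries (edgeR log2 fold change -2.77, SE 0.93, adjusted p 0.261).

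Feature 35435 held the most counts of the 96 and varied widely in the latest leaf. At drought day 9 it stood at 870 and 1420 CPM in treated latest leaves and at 21.2, 132 and 0.324 CPM in controls, which gave the largest single T, 6.14. At 2 h the treated values were 1138, 16.0 and 33.0 CPM and the control values 4.26, 41.8 and 178, so that treated replicate 1 alone lay above the controls. Second latest leaves at day 9 held 3992, 3622 and 4581 CPM in treated and 1349, 1815 and 1377 CPM in control libraries. Both leaves showed a higher level in the treated plants already at drought day 0: 75.2, 98.1 and 40.4 against 17.1, 21.0 and 18.5 CPM in the latest leaf, and 2299, 1289 and 1768 against 640, 771 and 459 CPM in the second. The groups did not overlap in either leaf at day 0. The edgeR log2 fold changes at day 0 were 1.81 (SE 1.53, adjusted p 0.607) and 1.45 (SE 0.78, adjusted p 0.533), and neither passed the threshold. After rewatering, treated replicate 2 of the second latest leaf was at 23.5 CPM at day 3 beside 1634 and 1590 CPM in the other treated libraries. The latter lay above every control of that leaf and stage, so that the T of -1.17 there rests on 1 library. At day 6 treated replicates 1 and 3 had 78.3 and 294 CPM beside 1493 in replicate 2, and controls had 1590, 1418 and 2335 CPM.

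Feature 25386 followed the pattern at low levels. At 2 h it had 8.76, 6.48 and 5.13 CPM in treated latest leaves against 2.24, 3.30 and 2.22 CPM in controls. Second latest leaf controls at rehydration day 3 held 23.9, 6.65 and 84.5 CPM, and treated leaves 3.42, 6.99 and 3.99 CPM. Control replicates 1 and 3 were again the high ones, and the groups overlapped at control replicate 2. Its edgeR log2 fold change there was -2.78 (SE 0.67, adjusted p 0.125).

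The next features by score differed in how even their treated libraries were. Feature 54198 had 26.9, 25.5 and 22.0 CPM in treated and 7.72, 9.11 and 8.08 CPM in control latest leaves at drought day 6, without overlap, which the choice favours. At 2 h in the second latest leaf it was at 29.1, 29.7 and 27.1 CPM against 18.8, 14.1 and 16.1. Feature 10504 stood at 7.66, 7.53 and 6.92 CPM in treated and 2.61, 3.34 and 5.19 CPM in control second latest leaves at 2 h. Feature 6013 had 119, 111 and 166 CPM against 51.4, 55.5 and 80.2 in the second latest leaf at day 6. At 2 h in that leaf its treated values spread to 491, 120 and 59.3 CPM, the last within the control range of 48.3 to 95.8. Feature 52303 showed the same order at 2 h in that leaf, with 179, 34.0 and 20.7 CPM in treated and 11.6, 19.9 and 21.7 CPM in control libraries. Feature 17667 had 29.4, 7.04 and 14.5 CPM in treated and 0.866, 1.41 and 5.06 CPM in control latest leaves at 2 h, with a T of 2.37, beside 1.09 at day 9.

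**Figure D3:**
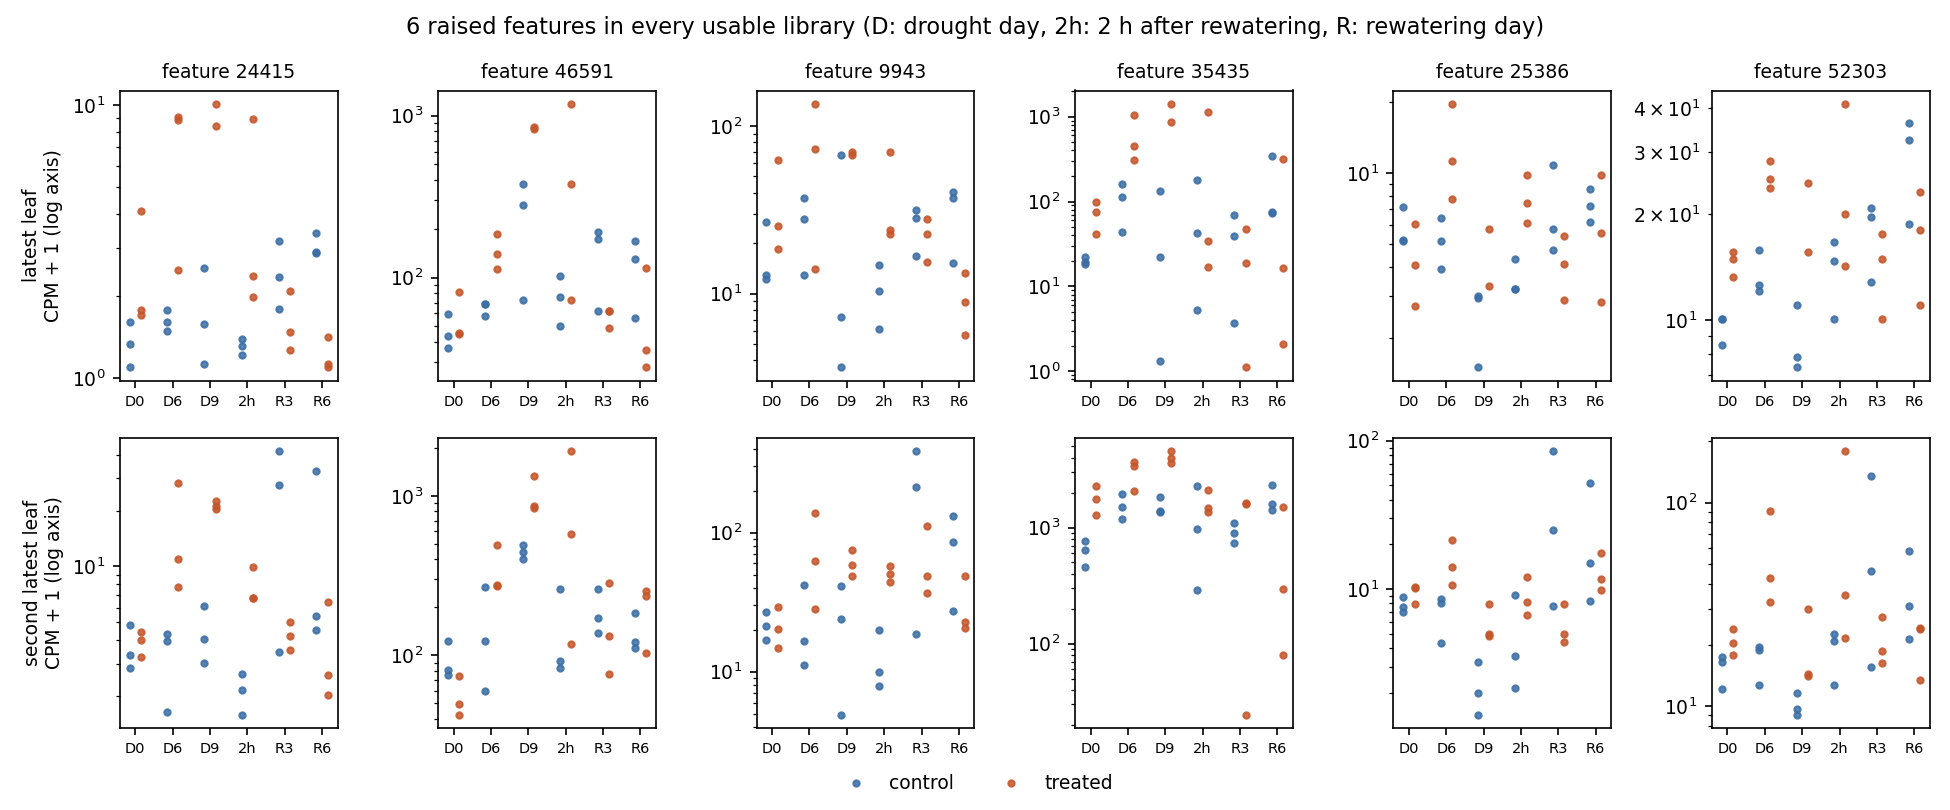
CPM + 1 on a log axis in every usable library for 6 raised features (columns) in the latest leaf (top) and the second latest leaf (bottom); D0, D6 and D9 are drought days, 2h is 2 h of rehydration, R3 and R6 are rehydration days, blue is control and orange is treated. Treated libraries of the latest leaf spread widely at 2 h in features 46591 and 35435, and second latest leaf controls at R3 include values of 387 CPM (feature 9943) and 40.9 CPM (feature 24415).

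Outside the features of highest score described above, features 25114, 25390, 22750, 52345 and 28150 had the highest mean CPM in treated libraries at 2 h. Picking them by that level favours a difference that peaks at 2 h, a stage also used in the choice of the raised features. T was largest at 2 h in both leaves in features 25114, 25390 and 22750, as it was in feature 46591. In feature 28150 this held in the second latest leaf only, and in feature 52345 in neither leaf. Feature 22750 had 378, 351 and 228 CPM in treated and 126, 121 and 135 CPM in control second latest leaves at 2 h. Feature 25390 had 413, 367 and 240 CPM against 179, 131 and 90.0. All treated libraries of both features exceeded all controls there, with replicate 1 highest. Feature 25114 had 1065, 338 and 165 CPM in treated second latest leaves at 2 h, of which the last lay inside the control range of 131 to 228. Feature 52345 was even among treated libraries, with 253, 249 and 281 CPM against 230, 111 and 129 in controls. Feature 28150 had 685, 241 and 144 CPM against 172, 78.5 and 122, with replicate 3 inside the control range.

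At the start of the treatment, drought day 0, the raised features already tended to be higher in plants assigned to drought, mostly in the latest leaf. Median T was 0.24 in the latest leaf, beside 0.09 over all eligible features, and 0.08 in the second latest leaf, beside 0.04. T was 0.4 or more in 38 of the 96 features in the latest leaf, beside 11.4% of eligible features, and in 14 in the second, beside 5.73%. It was -0.4 or less in 3 features (6.35% of eligible features) and in 4 (7.65%). Every treated library lay above every control library in 35 of the 96 features in the latest leaf, beside 24.2% of eligible features, and in 8 in the second, beside 12.6%. Treated libraries lay wholly below controls in 2 features (9.47%) and in 4 (10.7%). Both leaves had T of 0.4 or more in 8 features, among them 35435 and 52303, beside 3.45% of eligible features.

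Single features were not called at drought day 0. In the latest leaf, edgeR's quasi-likelihood test with Benjamini-Hochberg adjustment over 21037 features called 0 of the 96 higher and 0 lower, beside 0.266% and 0.371% of all features. An unadjusted p under 0.05 was reached by 12 raised features, all higher, beside 7.44% of all features higher and 8.02% lower, and DESeq2 called 2, beside 2.76% of all features. The lowest adjusted p there belonged to feature 47178 (log2 fold change 1.14, SE 0.33, edgeR adjusted p 0.0902). Feature 22750 had 142, 183 and 145 CPM in treated and 87.3, 103 and 108 CPM in control latest leaves at day 0, with no overlap (log2 fold change 0.56, SE 0.17, edgeR adjusted p 0.114). The second latest leaf likewise had 0 of the 96 called by edgeR among 20950 features, beside 0% in either direction, with 1 higher and 2 lower before adjustment (p under 0.05), beside 4.21% and 6.25%. DESeq2 called 0 there, beside 0.162%. The call in the latest leaf depended on the setting: 23 of the 96 (22 higher, 1 lower) passed with no filter on low counts, beside 3.8% of 41795 features. That share also covers the low-count features that the filter drops, whereas all 96 raised features pass the filter. With a fit of the 6 compared libraries alone, 16 of 90 tested (15 higher, 1 lower) passed, beside 7.42% of all features.

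By rehydration day 3 the median difference had turned negative. Median T was -0.27 in the latest and -0.17 in the second latest leaf, beside -0.08 in both over all eligible features. T was lower at day 3 than at 2 h in 96 of the 96 features in either leaf, the 2 h value being one that the choice had made high. It was below 0 in 80 features in the latest leaf, beside 68.5% of eligible features, and in 70 in the second latest leaf, beside 66.2%. T of -0.4 or less was found in 29 and 38 features, beside 5.88% and 8.23% of eligible features, and T of 0.4 or more in 1 and 4, beside 1.3% and 2.1%. In both leaves at once, 17 features were at -0.4 or less, beside 2.34%, and 0 at 0.4 or more, beside 0.517%. A feature that passed the limit of 5 CPM through high controls of this stage is favoured to have a negative T here.

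At rehydration day 6 median T was -0.43 in the latest leaf, beside -0.26 over all eligible features, and -0.20 in the second latest leaf, beside -0.21. T of -0.4 or less was found in 53 features (27.5% of eligible features) and in 33 (22.2%), and T of 0.4 or more in 1 (3.27%) and 9 (4.36%). Both leaves had T of -0.4 or less in 24 of the 96 features, beside 11.6%, and of 0.4 or more in 0, beside 1.63%. T was below its value at 2 h in 96 features in the latest and in 93 in the second latest leaf. A large part of the negative T at day 6 was shared by all eligible features. With TMM sizes, the median over all eligible features was -0.01 and -0.02 at day 6, and the raised features stood at -0.21 in the latest and -0.02 in the second latest leaf. At day 3 the TMM-scaled medians were -0.20 and -0.08, and 76 and 58 of the 96 features were below 0, beside 50.8% and 46.8% of eligible features.

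**Figure D4:**
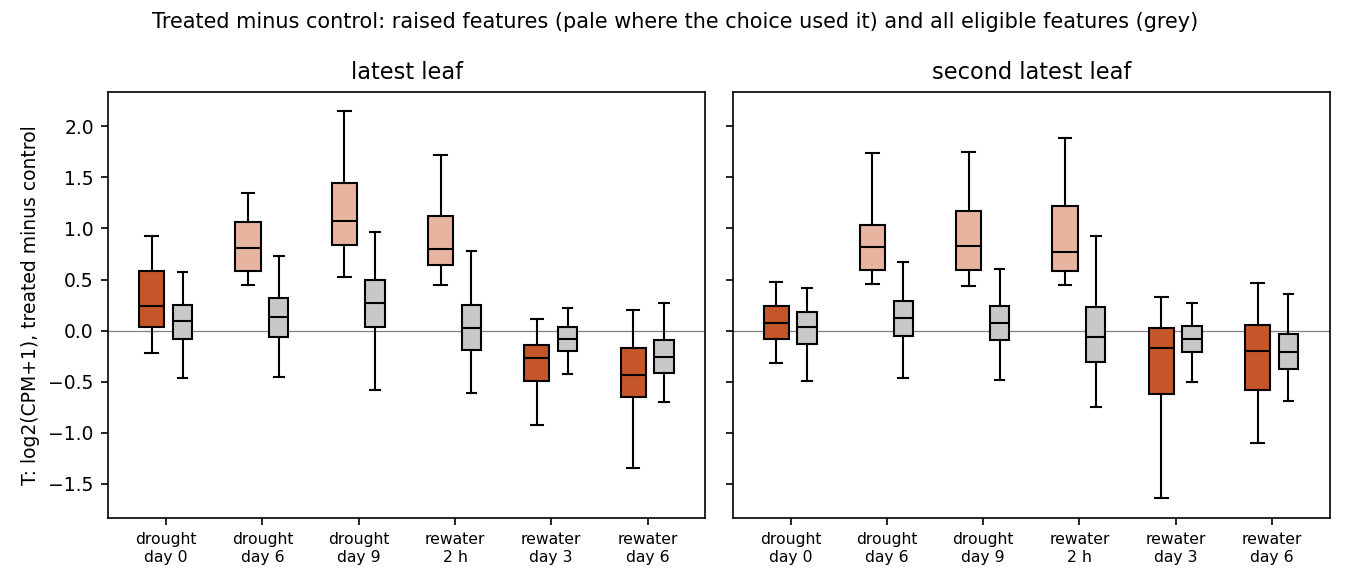
T by stage for the 96 raised features (orange, pale at the stages used to choose them) and for all 15485 eligible features (grey), in the latest leaf (left) and the second latest leaf (right); boxes span the quartiles with the median, and whiskers the 5th to 95th percentile. Medians of the raised features are above 0 at drought day 0 and below 0 at rehydration days 3 and 6 in both leaves.

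Separation of the groups after rewatering was no more frequent than over all features in the latest leaf. At day 3 every treated library lay below every control in 5 of the 96 features in the latest leaf, beside 5.42% of eligible features, and in 4 in the second latest leaf, beside 2.76%. Treated libraries lay wholly above controls in 0 features in either leaf, beside 0.988% and 1.18%. At day 6 they lay wholly below in 18 features in the latest leaf, beside 22.4%, and in 10 in the second, beside 30.4%. They lay wholly above in 0 features in the latest leaf, beside 1.47%, and in 5 in the second, beside 4.51%.

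Among the raised features, 0 passed the test after rewatering. The edgeR quasi-likelihood test called 0 of the 96 at day 3 and 0 at day 6 in the latest leaf, beside 0% of all features in each direction. At an unadjusted p under 0.05, 1 raised feature was higher and 8 lower at day 3, beside 2.47% and 2.69%, and 3 were higher and 10 lower at day 6, beside 8.04% and 4.91%. In the second latest leaf edgeR also called 0 at either day, beside 0% at day 3 and 0.119% higher and 0.143% lower at day 6. At an unadjusted p under 0.05, 2 were higher and 20 lower at day 3, beside 2.84% and 6.47%, and 5 were higher and 9 lower at day 6, beside 8.58% and 7.76%. DESeq2 called 0 in the latest leaf at either day, beside 0.00951% and 1.06% of all features. For the second latest leaf its counts were 3 at day 3, beside 0.434%, and 2 at day 6, beside 2.24%. The median log2 fold change fitted by edgeR over the 96 features was -0.20 and -0.18 in the latest and -0.08 and -0.03 in the second latest leaf at days 3 and 6. A p that misses the threshold does not show that treated leaves had returned to the control level.

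Single control libraries weighed on the day 3 values of the second latest leaf. The median level over the 96 features was 15.2, 8.78 and 16.4 CPM in control replicates 1, 2 and 3, and 8.62, 10.6 and 10.3 CPM in the treated libraries. Control replicate 2 was the lowest of the 3 controls for 63 of the 96 features, beside 34.4% of eligible features. Without it edgeR called 13 of the 96 lower and 0 higher, beside 2.21% and 0.0985% of all features, and median T was -0.35. Without control replicate 3 it called 0, beside 0%, and median T was -0.09. At day 6 in the latest leaf, treated replicate 2 had 8.25 CPM beside 4.73 and 4.47 in the other treated libraries, and without it edgeR called 6 of the 96, beside 4.79% of all features. Leaving out treated replicate 2 of the second latest leaf at day 6 gave 2, beside 1.31%. Both counts are near the share over all features.

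Features at the ends of the range after rewatering differed in how even they were. The 5 with the lowest mean T over both days and leaves were 35435 (-1.79), 24415 (-1.34), 9945 (-1.13), 9943 (-1.03) and 25386 (-0.98), and 4 of them had the second latest leaf controls of day 3 described above. In feature 35435 the negative T of the second latest leaf at day 3 rested on 1 low treated library. The highest mean T belonged to feature 40937 (0.30), followed by 52345 (0.25), 33450 (0.23), 17667 (0.23) and 3471 (0.17). Feature 40937 stood at 17.8, 10.7 and 18.2 CPM in treated and at 5.73, 7.18 and 6.05 CPM in control second latest leaves at rehydration day 6, with no overlap. Its edgeR log2 fold change was 1.54 (SE 0.42, adjusted p 0.082), the lowest adjusted p of the 96 at that stage and leaf, and in the latest leaf 1.52, 7.38 and 2.08 CPM overlapped 3.08, 2.97 and 2.77. Feature 3471 stood at 22.9, 13.1 and 23.1 CPM in treated latest leaves at day 6 and between 9.60 and 13.3 in controls, overlapping by 1 library (log2 fold change 1.07, SE 0.32, edgeR adjusted p 0.232).

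Whether the leaf positions differed in the treated to control ratio was tested at the stages whose T was not used in the choice. The leaf by treatment interaction in edgeR, fitted to 71 libraries and 21824 features, was called in 0 of the 96 features at drought day 0, rehydration day 3 and rehydration day 6. Over all features 0%, 0% and 0.00458% were called, the last in the lower direction. At an unadjusted p under 0.05 1 raised feature was higher and 0 lower at day 0, beside 1.3% and 1.01% of all features. The counts were 4 and 3 at rehydration day 3, beside 1.68% and 1.36%, and 1 and 3 at rehydration day 6, beside 3.12% and 3.3%. DESeq2 called 0 at each stage, beside 0.00458%, 0% and 0.0504%. The lowest unadjusted p at day 6 belonged to feature 21734 (log2 ratio of ratios -0.44, SE 0.17, edgeR adjusted p 0.687).

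Irrigated controls themselves showed a leaf preference among the raised features. Averaged over the controls of drought day 0 and rehydration days 3 and 6, 33 of the 96 features were lower in the latest than in the second latest leaf by edgeR, and 0 were higher. T of these stages did not enter the choice, but these controls counted toward the limit of 5 CPM. That limit can favour features that are high in 1 leaf position. Over the 21824 features tested, which were not held to that limit, 9.73% were called lower and 9.76% higher. With the replicate number as a block, 40 were lower and 3 higher, beside 13.9% and 15.6% of all features; same-numbered leaves deviated together in controls of drought day 0 and rehydration day 6 but not in every pair of rehydration day 3. Levels in the second latest leaf were 1.25 to 18.8 times those in the latest leaf in the 33 features, with a median of 2.26. The log2 fold change, latest over second latest, was below 0 in 74 of the 96 features, with a median of -0.34, while the median over all features was -0.00. At an unadjusted p under 0.05 the share over all features was 16% lower and 16.2% higher.

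**Figure D5:**
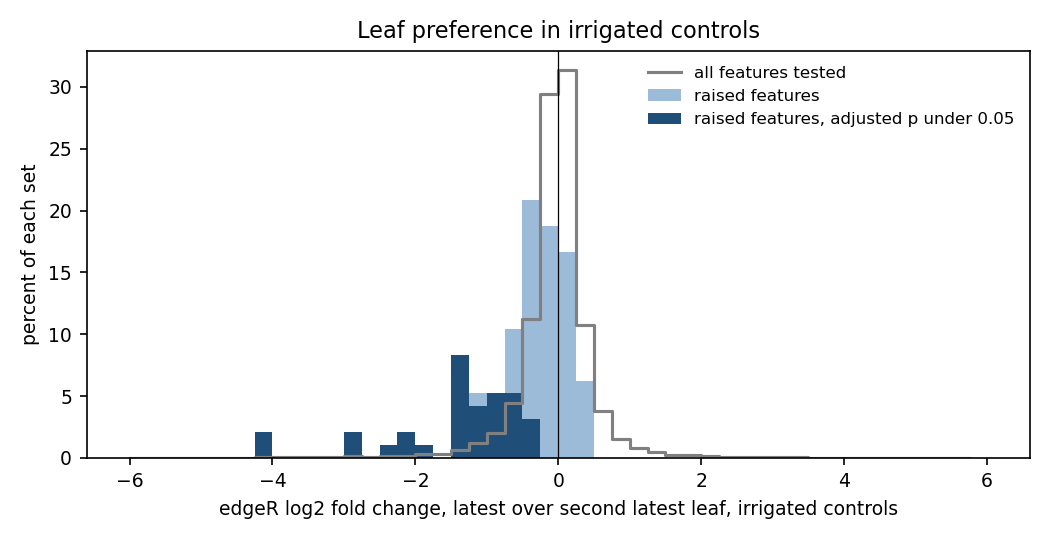
Percent of the 96 raised features (light blue), of those called (dark blue, as a percent of the 96) and of all 21824 features tested (grey line) by edgeR log2 fold change, latest over second latest leaf, in irrigated controls of drought day 0 and rehydration days 3 and 6. The raised features lie to the left of the line for all features, and all 33 called ones are below 0, the farthest at -4.23.

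Feature 35435 had the largest of these leaf differences. Its controls stood at 640, 771 and 459 CPM in the second latest and at 17.1, 21.0 and 18.5 CPM in the latest leaf at drought day 0. The positions were also apart at rehydration day 3, with 1095, 898 and 730 CPM against 37.8, 68.6 and 2.68. Its log2 fold change was -4.23 (SE 0.80, edgeR adjusted p 0.00021). Feature 38614 had the lowest p, with 2.10, 3.29 and 3.20 CPM in second latest and 0.474, 0.401 and 0.374 CPM in latest leaf controls at day 0. At rehydration day 3 it had 4.93, 2.47 and 10.2 against 0.156, 1.22 and 0.553 CPM, again with no overlap. Its log2 fold change was -2.36 (SE 0.29, edgeR adjusted p 4.74e-07), and it was singled out after its values were seen. Feature 24415 stood at 1.85, 3.83 and 2.35 CPM against 0.609, 0.334 and 0.0936 CPM at day 0 (log2 fold change over the 3 stages -2.96, SE 0.47, edgeR adjusted p 2.69e-05). Feature 24416, the next line of the table and also singled out afterwards, was called (edgeR adjusted p 0.00685), but its latest leaf controls ran from 0 to 0.369 CPM, at or under the level of 3 counts in most libraries. Features 9943, 25386 and 52303 were called too, with log2 fold changes of -1.39, -1.45 and -0.81 (edgeR adjusted p 0.0245, 0.00212 and 0.0303).

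The number called for this leaf difference varied between stages, as it did over all features, while the size of the difference was similar. With controls of 1 stage at a time, compared after the pooled result was seen, edgeR called 3 raised features lower at drought day 0, 17 at rehydration day 3 and 1 at rehydration day 6, and 0 higher. The matching shares over all features were 0.646%, 2.19% and 0.0458% lower, and 0.444%, 0.99% and 0.252% higher. The median log2 fold change of the 96 was -0.34, -0.29 and -0.23, and 72, 69 and 72 of them were below 0. At an unadjusted p under 0.05 in edgeR, 18, 28 and 22 raised features were lower and 0, 1 and 1 higher. Of the 21824 features tested, 1824, 2267 and 1100 were lower and 1732, 1941 and 1352 higher at that limit. In treated leaves at the same stages, edgeR called 2, 1 and 3 raised features lower in the latest leaf and 0 higher. Over all features 0.28%, 0.234% and 0.472% were lower, and 0.334%, 0.188% and 0.958% higher. The median over the 96 in treated leaves was -0.15, -0.40 and -0.54. With 1 replicate left out at a time the pooled count ran from 24 to 37, beside 14.1% to 20.1% of all features.

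Controls also differed between sampling days. Plant age, the day of sampling and which leaf was then the latest cannot be told apart in this comparison. Between drought day 0 and rehydration day 6, 6 of the 96 features rose in latest leaf controls and 0 fell by edgeR, beside 1.91% and 2.2% of all features. Those were features 5419, 10730, 47178, 47662, 51124 and 52303. Feature 52303 went from 7.51, 9.09 and 9.08 CPM to 17.7, 31.4 and 35.3 CPM, with no overlap (log2 fold change 1.42, SE 0.27, edgeR adjusted p 0.00865). In the second latest leaf features 17218 and 17667 rose and feature 3471 fell, beside 1.33% and 1.68% of all features. Feature 17218 went from 2.85, 2.23 and 3.95 CPM to 7.66, 8.94 and 8.82 CPM (log2 fold change 1.30, SE 0.21, edgeR adjusted p 0.00181). Feature 17667 went from 1.34, 1.34 and 0.0841 CPM to 7.81, 16.0 and 5.55 CPM (log2 fold change 3.21, SE 0.82, edgeR adjusted p 0.0302). Feature 3471 went the other way, from 13.3, 22.2 and 15.2 CPM to 10.9, 9.08 and 9.60 CPM (log2 fold change -0.96, SE 0.26, edgeR adjusted p 0.044).

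Over the 96 features, controls tended to be higher at the later samplings. The median log2 fold change over the 96 features, rehydration day 6 over drought day 0, was 0.32 in latest and 0.31 in second latest leaf controls, and 78 and 68 features were above 0, while the medians over all features were 0.01 and -0.03. In treated plants the same interval gave -0.02 and 0.23. Rehydration day 3 against drought day 0 gave 0.45 and 0.43 in controls and 0.00 and 0.22 in treated plants. These comparisons share their control libraries with T at days 0, 3 and 6 and are no independent support for it. The count called in controls at rehydration day 3 was 1 higher in the latest leaf, beside 0.2% of all features, and 10 higher in the second, beside 1.15%. In either leaf 0 were lower, beside 0.209% and 0.544%. Treated latest leaves had 0 called at day 3, beside 0.266% of all features higher and 0.276% lower, and 0 at day 6, beside 0.257% and 0.128%. Treated second latest leaves had 1 higher at day 3 (0.162%) and 2 higher and 1 lower at day 6 (2.46% and 3.23%). In treated latest leaves, at an unadjusted p under 0.05 in edgeR, 8 were higher and 10 lower at day 3, beside 7.39% and 6.94% of all features, and 11 higher and 4 lower at day 6, beside 5.9% and 5.08%. These comparisons of day 3 and of treated plants were added after the first results were seen. The number called from day 0 to day 6 in latest leaf controls fell to 0 without control replicate 1 of day 0 or control replicate 3 of day 6, and ran from 1 to 3 in the second latest leaf. The shares over all features in these fits were 0.171% to 2.09% and 0.244% to 1.27%.

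Features were also chosen in 1 leaf and read in the other, whose T that choice had not used. The leaves are not independent, because same-numbered latest and second latest leaves deviated together at drought days 6 and 9 and at 2 h. A deviation that favours the choice in 1 leaf can therefore recur in the other, and the values are given as a description with no test. The rule applied to the latest leaf alone passed 350 features, and the 150 highest were read in the second latest leaf. Their median T there was 0.70 at drought day 6, 0.58 at day 9 and 0.55 at 2 h, beside 0.13, 0.08 and -0.06 over all eligible features. T of 0.4 or more was found in 111, 105 and 90 of them, beside the 14.5%, 11.9% and 16.5% of eligible features given above. The rule applied to the second latest leaf alone passed 223, and its 150 highest had a median T of 0.58, 0.92 and 0.60 in the latest leaf. The medians over all eligible features were 0.14, 0.27 and 0.02. T of 0.4 or more was found there in 105, 128 and 101, beside 18.3%, 33.9% and 15.6%. At rehydration days 3 and 6 the median T of the first set in the second latest leaf was -0.08 and -0.06, beside -0.08 and -0.21 over all eligible features. The second set had -0.27 and -0.33 in the latest leaf, beside -0.08 and -0.26. The sets shared 61 and 77 features with the 96.

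Some raised features stood next to each other in the table. There were 8 pairs within 5 lines, which held 15 of the 96 features, and 4 of the pairs were on adjacent lines. Pearson's r of log2(CPM + 1) over the 71 libraries, given as a description with no test, was 0.93 for features 5450 and 5451, 0.89 for 24415 and 24416 and 0.77 for 9943 and 9945. For features 10504 and 10505 it was 0.45, and for 25389 and 25390 it was 0.33. The libraries share stage and treatment, which moved all of these features by choice. No pair had identical counts (0 of 8), and whether line order follows genome order is not given in the sources used here.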

How the data were processed

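RNA was measured in leaves of IR64 rice by sequencing in 72 libraries. Raw read counts per feature were deposited by the authors in 1 table with no normalization. The submitters' processing notes, copied with the labels, name STAR, featureCounts 2.0.0 and build IRGSP-1.0. Not given in the sources used here: annotation, strand setting and handling of reads that match several genes. The kit was directional, per the labels' protocols, but without a stated strand setting overlapping antisense genes cannot be told apart.

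From these counts, CPM and T were computed in Python 3.11.15 and the tests run in R 4.3.3. Low counts were filtered with filterByExpr, libraries scaled by TMM, and 1 mean per group fitted by quasi-likelihood (glmQLFit and glmQLFTest) in edgeR 4.0.16 to the 35 usable libraries of the latest leaf, the 36 of the second latest leaf, or all 71. P-values were adjusted by Benjamini-Hochberg over every feature tested, and an adjusted p under 0.05 was called. All 96 features passed the filter, and an SE is the absolute log2 fold change divided by the square root of F. DESeq2 1.42.0, other scalings, filters, pseudocounts and left-out replicates were alternatives. The fits were tested on simulated data.

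The members, lists and comparisons were chosen with earlier results of these data known. Features named were the 10 of highest score and, outside these, the 5 of highest CPM in treated libraries at 2 h. Also named were the 5 highest and 5 lowest after rewatering, any called at the stages whose T was unused, and 2 on either side of the limit. Others were named after their values were seen: the lowest p of a comparison, those called in control comparisons, and neighbours in the table. Gene and marker lists need identifiers, so 0 were applied.

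Replicates were compared before averaging: 0 of 70 pairs were identical, with a chi-square over its degrees of freedom between 7.53 and 223, and each library counted as 1 sample. Same-numbered latest and second latest leaves deviated together, every pair's correlation being over 0.1, at drought days 0, 6 and 9, at 2 h and at rehydration day 6, which pairs them for the interactions at day 0 and rehydration day 6. Rehydration day 3 pairs ran from -0.104 to 0.573 in controls. Treated and control libraries of the same number had every pair's correlation over 0.1 at no stage, and the main fits did not pair them. With at most 3 pairs per stage, this cannot show that they were unpaired.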

Additional observations from a re-analysis of the deposited data

Results flagged for a closer look

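The latest leaf library left out of every value above, treated replicate 2 of day 9 of drought, held counts that no comparison used. Of its 1755 counts 16 fell in the 96 raised features, a share of 0.912% with an exact (Clopper-Pearson) 95% interval of 0.522% to 1.48%, which covers counting error only. The other treated libraries of that leaf and stage had 0.540% and 0.636%, and the controls 0.168% to 0.283%. Its interval lies above the control range. The choice favours this gap, because the rule used those controls and required a lower mean in them than in the usable treated libraries. The interval also takes each count as independent, though 6 of them were in 1 feature. The counts sat in 8 features, of which feature 25390 had 6 and feature 35435 had 3, and 1 count equals 570 CPM there, so no single feature can be read from it. It stood out because it holds data outside the measurement above the level in controls. This is 1 library, so there was no test.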

How the results depend on the processing

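Of the recomputed values, 241 stayed within their limit and 35 moved. Shares over all features in the same fit stand in parentheses. With no filter these shares also cover low-count features, whereas all 96 raised features pass the filter. With no filter on low counts edgeR called 23, 7 and 14 raised features (3.8%, 0.608% and 3.06%) in the latest leaf (treated against control, drought day 0, rehydration days 3 and 6), 15 and 6 (0.881% and 1.83%) in the second latest leaf at days 3 and 6, and 27 and 23 (6.77% and 3.55%) between controls of rehydration day 6 and drought day 0 in the latest and second latest leaf. With the compared libraries alone it called 16 in the latest and 1 in the second latest leaf at day 0 (7.42% and 0.414%), and 30 and 23 between control days (19% and 17.9%), where 90 to 95 of the 96 were tested. DESeq2 called 2 in the latest leaf at day 0 (2.76%), 3 and 2 in the second latest leaf at days 3 and 6 (0.434% and 2.24%), and 11 between control days there (5.67%). The causes were not tested. Controls of 1 stage gave 3, 17 and 1 leaf calls, all lower (0.646%, 2.19% and 0.0458% lower, 0.444%, 0.99% and 0.252% higher), added after the pooled result was seen.

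The rule kept 43 features with a pseudocount of 5 in place of 1 and 26 at a score of 0.6. It passed 350 and 223 features from the latest or the second latest leaf alone and 156 without drought day 9, and keeps at most 150 of them. The last was added once day 9 had been found to differ from other stages. With TMM sizes it kept 67, of which 61 were among the 96, with a pseudocount of 0.5 it kept 127 and from 1 CPM it kept 106.

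Leaving out 1 library at a time gave 67 to 110 features from the rule. Treated against control then gave 0 to 6 calls in the latest leaf at day 6 (0% to 4.79%), 0 to 13 and 0 to 2 in the second latest leaf at days 3 and 6 (0% to 2.31% and 0% to 1.31%), and 0 elsewhere, interactions included. Control days gave 0 to 6 and 1 to 3 (0.171% to 2.09% and 0.244% to 1.27%), and the leaf difference 24 to 37 (14.1% to 20.1%). Median T ran from 0.20 to 0.34, -0.40 to -0.14 and -0.61 to -0.28 in the latest leaf at day 0 and rehydration days 3 and 6, and from 0.06 to 0.12, -0.35 to -0.09 and -0.29 to -0.09 in the second.

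With the replicate number as a block, edgeR called 0 raised features in treated against control at each of the 6 combinations of leaf and stage (0% to 0.597%) and 0 in each interaction (0% to 0.0412%), 8 and 4 between control days (5.35% and 3.52%), and 43 in the leaf difference, 40 lower (13.9%) and 3 higher (15.6%). The block changed no call of the paired interactions, and for treated and control leaves the labels give only a shared number.

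Of the 96 features, 48 had under 10 CPM, and whether depth limits single features was not tested. With 3 against 3 libraries an exact permutation test could not go below 0.1.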

Other observations

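The mirrored rule, with T of -0.4 or less at all 6 values, gave 107 lowered features beside the 96 raised ones. At drought day 0 the lowered features had a median T of -0.31 in the latest and -0.33 in the second latest leaf, beside 0.09 and 0.04 over all eligible features. At rehydration day 3 the medians were 0.18 and 0.01, beside -0.08 in both. At rehydration day 6 they were 0.35 and -0.30, beside -0.26 and -0.21. In the near-empty library the lowered features held 22 counts, 1.25% of its total (exact 95% interval 0.787% to 1.89%). The other treated libraries of that leaf and stage had 0.572% and 1.26%, and the controls 1.56% to 4.20%. The interval overlaps the range of the treated libraries and that of the controls. The choice fixed the sign of the 6 values in both sets, and the difference between the sets was not tested.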
